A study of Mus musculus with 12 samples.

Results

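Progenitor and duct markers are 9 genes used to mark bile duct cells, liver progenitor cells and the stem-like cells of liver tumours. They were taken as the probes whose gene name in the array files was Prom1, Tspan8, Cd24a, Epcam, Cd44, Spp1, Sox9, Krt19 or Krt7. These 9 genes have 13 of the 55681 probes, and 7 of them were among the 18101 genes tested. Epcam and Krt7 were too dim for the test, and their values are given without it. The genes are not all surface markers: Prom1, Tspan8, Cd24a, Epcam and Cd44 encode surface proteins, Spp1 a secreted protein, Sox9 a transcription factor, and Krt19 and Krt7 intracellular filaments.

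Liver RNA of F2 males of the C3H/HeN strain, about 74 weeks old, was measured on 12 Agilent 1-colour arrays, 3 in each of 4 groups. In the arsenite line the F0 females drank 85 ppm sodium arsenite from day 8 to day 18 of gestation, and the F1 mice were mated at 10 weeks. The F2 mice themselves received no arsenite. The arsenite line gave 3 groups, which are tumours, non-tumour liver and normal liver, and the control line, whose F0 females had no arsenite, gave non-tumour liver. The labels do not say whether samples of different groups came from the same mice, and p-values measure the spread between numbered samples. Control normal liver and control tumours, which the design text also names, were not analysed here, so no tumour of the control line stands beside the tumours described.

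In healthy liver, EpCAM, SOX9, osteopontin (Spp1) and the keratins KRT7 and KRT19 mark the cells that line the bile ducts, and mature hepatocytes carry little of them. Duct-like progenitor cells that expand in injured liver carry many of the same markers, together with CD133 (Prom1), CD24 and CD44. CD133, CD24, CD44, EpCAM and TSPAN8 have also been used to describe aggressive or stem-like cells in carcinomas.

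The probes decide what each value can show, so those for the transcribed regions that bear on the results are given first, as 60-base sequences from the array files with mm9 positions. The Prom1 probe below is the dimmer of a pair that gave the same direction. The Epcam and Krt7 probes were near background on most arrays, and both Cd44 probes below were at background on every array. The Epcam probe spreads over 829 bases of the genome and so is split in the genomic sequence.
Prom1 probe 2 (chr5:44397410-44397469, minus strand): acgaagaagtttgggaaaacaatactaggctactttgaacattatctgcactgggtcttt
Epcam (chr17:88048972-88049800, plus strand): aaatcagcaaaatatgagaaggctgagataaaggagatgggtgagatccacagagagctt
Krt7 (chr15:101253718-101253777, plus strand): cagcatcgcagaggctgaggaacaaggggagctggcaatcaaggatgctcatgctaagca
Krt19 (chr11:100002392-100002451, minus strand): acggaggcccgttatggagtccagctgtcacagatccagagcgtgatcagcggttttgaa
Cd44 probe 3 (chr2:102672645-102672704, minus strand): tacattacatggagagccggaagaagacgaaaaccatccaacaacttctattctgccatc
Cd44 probe 4 (chr2:102677971-102678030, minus strand): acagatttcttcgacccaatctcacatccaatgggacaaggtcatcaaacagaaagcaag

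Levels are log2 signals relative to the 75th percentile of the array, so that 0 is that percentile and a step of 1 is a doubling. A level is called well above background where the scanner software marked the spot so. Differences are tumour minus non-tumour or normal liver, or the group named first minus the other, with the standard error (SE) of a limma fit of all 12 arrays. A gene is called where its Benjamini-Hochberg adjusted p over all 18101 genes is under 0.05. Between 39.2% and 45.6% of probes were well above background on an array. Each probe hybridises differently, so levels of different genes are not set against each other.

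In tumours 3 of the 7 tested genes rose strongly, Tspan8, Prom1 and Cd24a, and none fell. Sox9, Spp1, Cd44 and Krt19 did not pass the test against either liver tissue of the arsenite line in the fit of 12 arrays, and Sox9 did in fits without the control arrays. Neither Epcam nor Krt7 was well above background in any tumour. The plot of all 9 genes by array shows these patterns. Against non-tumour liver of the arsenite line, 47.1% of all genes tested were called, 17.1% higher and 30.0% lower. Against normal liver 48.1% were called, 17.2% higher and 31.0% lower. The tumour arrays lay on a slide of their own, as did the normal liver arrays, so slide and tissue cannot be told apart in these comparisons. In bulk tissue, a change in the share of a cell type and a change in RNA per cell cannot be told apart either. The median difference over all genes was -0.13 against non-tumour liver and -0.15 against normal liver.

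**Figure D1:**
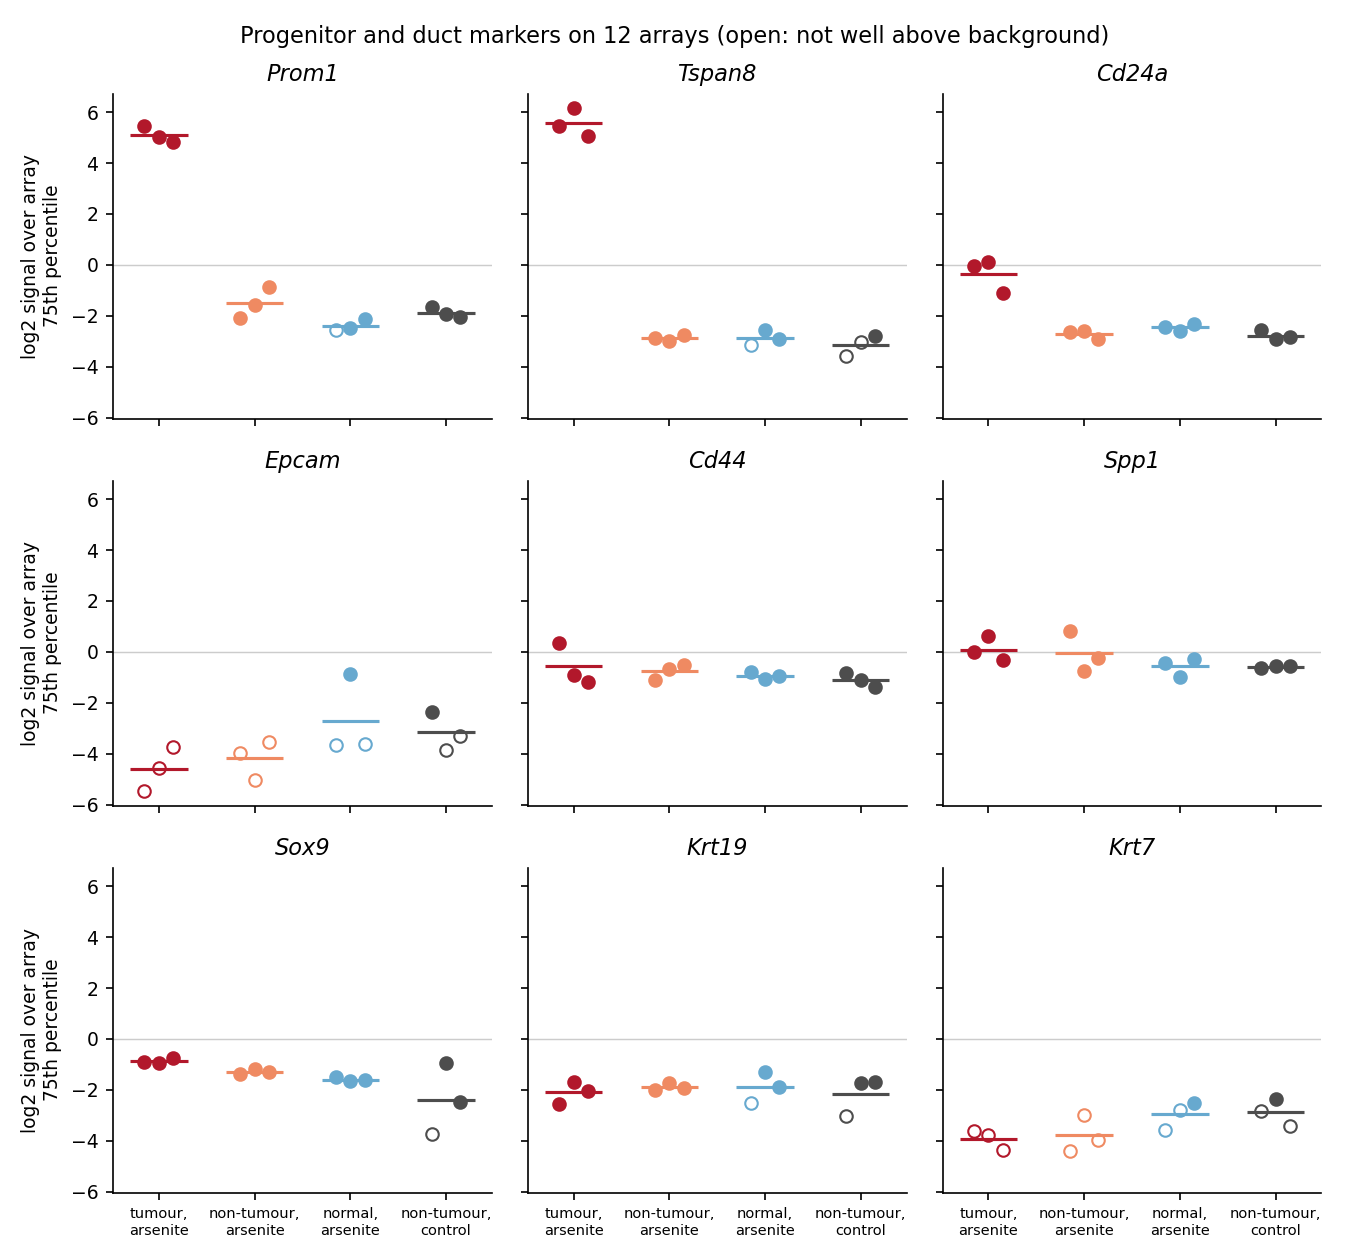
Level of each gene (y axis, log2 signal over the 75th percentile of the array) in the 4 groups (x axis); each point is 1 array, lines are means of 3 arrays, and open points were not well above background. Prom1, Tspan8 and Cd24a lie higher in the 3 tumours than on any of the other 9 arrays, whereas Epcam and Krt7 have open points in all tumours.

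Tspan8 encodes a tetraspanin, a membrane protein that gathers integrins and other receptors into clusters at the cell surface. Its levels were 5.47, 6.15 and 5.07 in tumours, -2.88, -3.00 and -2.74 in non-tumour liver and -3.14, -2.56 and -2.92 in normal liver of the arsenite line, and -3.57, -3.04 and -2.78 in control non-tumour liver. All 3 tumours lay far above the other 9 arrays, which overlapped among groups. The difference was 8.43 ± 0.28 (SE, n = 3 per group, limma adjusted p = 1.8e-08) against non-tumour liver, a 346-fold higher level, and 8.44 ± 0.28 (adjusted p = 1.9e-08) against normal liver, 347-fold. Outside tumours the signal was close to the detection limit: the arrays that passed as well above background were 3 of 3 for non-tumour liver and 2 of 3 for normal liver of the arsenite line, and 1 of 3 for the control line. The single Tspan8 probe maps to chromosome 10 of mm9 (115286563 to 115286622, plus strand).

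Prom1 encodes CD133, a glycoprotein of membrane protrusions. In tumours its levels were 5.47, 5.03 and 4.82, against -2.08, -1.57 and -0.86 in non-tumour liver and -2.57, -2.47 and -2.13 in normal liver of the arsenite line. Control non-tumour liver had -1.66, -1.93 and -2.05. The lowest tumour thus exceeded the highest other array by more than the whole range of those 9 arrays. The difference was 6.61 ± 0.28 against non-tumour liver (SE, n = 3 per group, limma adjusted p = 9.6e-08), 97.6-fold, and 7.50 ± 0.28 against normal liver (adjusted p = 4.7e-08), 181-fold.

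A second Prom1 probe, the sequence printed above, gave the same direction. Its levels were 1.14, 0.68 and 0.60 in tumours. None of the other 9 arrays, at -5.27 to -4.20, was well above background. The probe thus passed the filter on dim signals through the tumours alone, and the fold is a lower bound: tumours were at least 17.3-fold higher than non-tumour liver and at least 15.7-fold higher than normal liver. Such a bound replaces any lower signal of the dim group with the lowest one that passed as well above background on that array. The brighter probe lies at chr5:44384861-44384920 (mm9, minus strand), on the 3′ side of the dimmer probe.

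Cd24a encodes a small sialoglycoprotein that is anchored in the membrane by lipid and binds P-selectin and Siglec receptors. Tumours had levels of -0.06, 0.13 and -1.10, against -2.65, -2.59 and -2.93 in non-tumour liver and -2.44, -2.59 and -2.32 in normal liver of the arsenite line. Control non-tumour liver had -2.57, -2.92 and -2.84. Tumour 3 was lower than the other 2 tumours and still above every array outside tumours. The difference was 2.38 ± 0.27 (SE, n = 3 per group, limma adjusted p = 5.1e-05) against non-tumour liver, 5.20-fold, and 2.11 ± 0.27 (adjusted p = 0.00012) against normal liver, 4.32-fold. With normexp background correction in place of the scanner's, the differences were 1.19 and 1.01, still called. The probe was well above background on all 12 arrays and lies on chromosome 10 of mm9 (43303706 to 43303765).

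**Figure D2:**
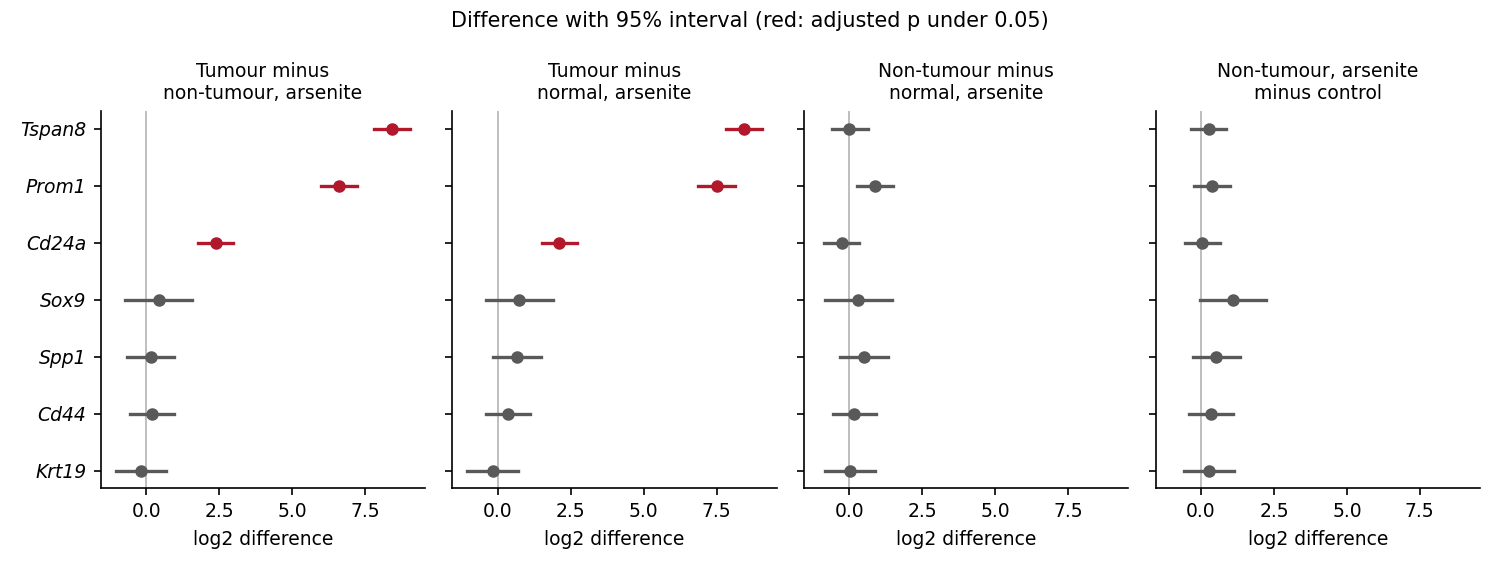
Difference in log2 level (x axis) of the 7 tested genes (rows) in the 4 comparisons (panels), with the 95% interval of the limma fit; red marks an adjusted p under 0.05. Tspan8, Prom1 and Cd24a are red in both tumour panels, and no gene is red in the panels without tumours.

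Epcam encodes the adhesion molecule EpCAM, used to separate duct and progenitor cells from hepatocytes. Its levels were -5.46, -4.56 and -3.73 in tumours, -3.98, -5.03 and -3.53 in non-tumour liver, -3.64, -0.85 and -3.63 in normal liver, and -2.36, -3.84 and -3.29 in control non-tumour liver. Only normal liver 2 and control non-tumour liver 1 were well above background. The values of tumours and non-tumour liver overlapped, but all 6 were background readings, so no difference between them is given. Epcam was thus not detectable in tumours with this probe, which sets no lower limit on its level. The tumour values lay below those of normal liver, the closest being -3.73 and -3.64. Of these arrays only normal liver 2 was well above background.

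Krt7 encodes a keratin of duct epithelium. Levels were -3.61, -3.77 and -4.36 in tumours, -4.39, -2.97 and -3.96 in non-tumour liver, -3.58, -2.79 and -2.50 in normal liver, and -2.84, -2.35 and -3.43 in control non-tumour liver. Normal liver 3 and control non-tumour liver 2 alone were well above background. As for Epcam, the tumour and non-tumour values of the arsenite line were all background readings, and no difference is given. Tumour values lay below those of normal liver here too, the closest being -3.61 and -3.58. Of these arrays only normal liver 3 was well above background.

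Krt19 encodes another duct keratin. It was well above background on 10 arrays, all but normal liver 1 and control non-tumour liver 1. Its levels were -2.54, -1.70 and -2.03 in tumours, -2.01, -1.74 and -1.94 in non-tumour liver, -2.53, -1.29 and -1.89 in normal liver, and -3.01, -1.74 and -1.71 in control non-tumour liver. The groups overlapped. Differences of tumours were -0.19 ± 0.39 against non-tumour liver (95% interval -1.05 to 0.67, limma adjusted p = 0.71) and -0.18 ± 0.39 against normal liver (-1.04 to 0.68, adjusted p = 0.72). The intervals reach a rise of 0.67 and 0.68, below the differences of Prom1, Tspan8 and Cd24a.

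Spp1 encodes osteopontin, a secreted ligand of integrins and CD44. Its levels were -0.01, 0.61 and -0.32 in tumours, 0.83, -0.74 and -0.25 in non-tumour liver, -0.43, -0.98 and -0.27 in normal liver, and -0.63, -0.56 and -0.57 in control non-tumour liver. The highest of the 12 values was in non-tumour liver 1, not in a tumour. Differences of tumours were 0.15 ± 0.37 against non-tumour liver (95% interval -0.67 to 0.96, limma adjusted p = 0.77) and 0.65 ± 0.37 against normal liver (-0.17 to 1.47, adjusted p = 0.17).

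Cd44 encodes the receptor of hyaluronan, and its transcripts carry a variable set of exons. By its brightest probe, at chr2:102651398-102651457, levels were 0.36, -0.90 and -1.17 in tumours, -1.09, -0.68 and -0.50 in non-tumour liver, -0.80, -1.05 and -0.94 in normal liver, and -0.81, -1.12 and -1.37 in control non-tumour liver. Tumour 1 had the highest value of all arrays, and the other 2 tumours lay among the non-tumour and normal arrays. Differences were 0.19 ± 0.34 against non-tumour liver (limma adjusted p = 0.68) and 0.36 ± 0.34 against normal liver (adjusted p = 0.41).

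The second Cd44 probe, at chr2:102654278-102654337, was well above background on 7 of 12 arrays and showed the same tumour highest. Its levels were -1.08, -3.13 and -2.45 in tumours, and -3.45 to -1.69 on the other 9 arrays. The other 2 Cd44 probes, whose sequences are given above, lie further 5′ on the minus strand and were well above background on none of the 12 arrays. Their levels were -5.63 to -3.69 over both probes. A Cd44 transcript that holds these sequences was not detectable with these probes.

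**Figure D3:**
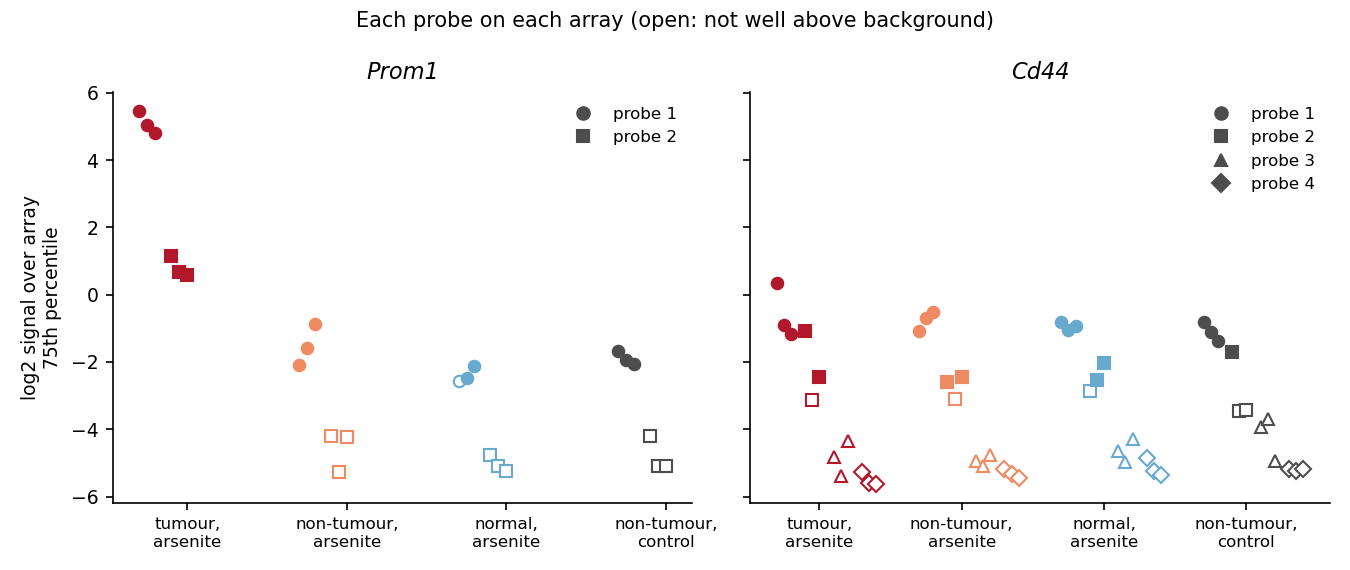
Level of each probe of Prom1 (left) and Cd44 (right) by group, in log2 signal over the 75th percentile of the array; symbols are probes, points are arrays, and open points were not well above background. Both Prom1 probes are higher in all 3 tumours, and for Cd44 only tumour 1 stands above the other arrays, by probes 1 and 2.

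Sox9 encodes a transcription factor of duct cells. Its single probe was spotted 10 times, so each level is a mean of 7 to 10 usable spots. The levels were -0.89, -0.93 and -0.75 in tumours, -1.37, -1.18 and -1.30 in non-tumour liver, -1.49, -1.67 and -1.63 in normal liver, and -3.74, -0.93 and -2.48 in control non-tumour liver. Within the arsenite line the 3 tissues did not overlap, with tumours highest and normal liver lowest. The control arrays spread more widely than the arsenite line as a whole.

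By the fit of 12 arrays, which pools the spread of all groups, the Sox9 difference was 0.43 ± 0.51 against non-tumour liver (limma adjusted p = 0.52) and 0.74 ± 0.51 against normal liver (adjusted p = 0.26). In a fit of the 6 arrays of each comparison the SE was 0.10 and the adjusted p was 0.019 and 0.0024, and with the sample number as a block it was 0.045 and 0.015. Over the 9 arrays of the arsenite line, a fit added after the values were seen, it was 0.0069 and 0.00047. The call for Sox9 therefore depends on whether the control arrays enter the spread. Tumours were 1.35-fold higher than non-tumour liver and 1.67-fold higher than normal liver by the group means, small beside the changes in Tspan8, Prom1 and Cd24a.

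The repeated spots give the spread of Sox9 levels within an array. Their SD was 0.09 to 0.24 on the 11 arrays where the probe was well above background, and 0.61 on control non-tumour liver 1, where it was not. These SDs cover the spots of a single array and leave out sample preparation and hybridisation. On that same control array, Tspan8 at -3.57 and Krt19 at -3.01 were also the lowest of their 12 values, while Epcam at -2.36 was the second highest of its values. Its 75th percentile signal of 186 lay within the 153 to 245 of the 12 arrays.

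**Figure D4:**
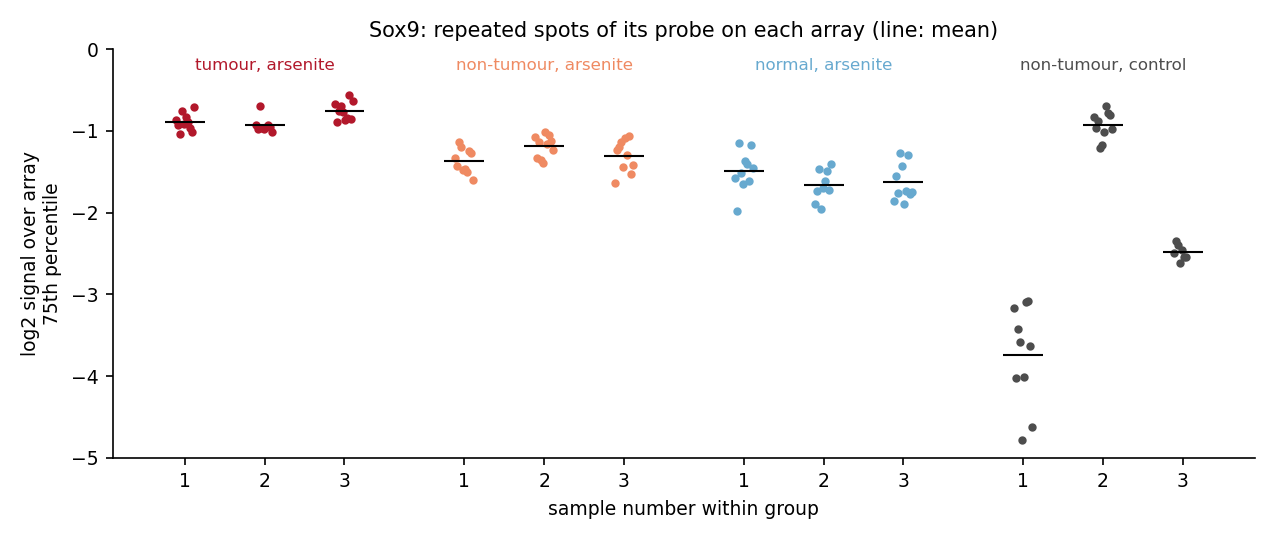
Level of each usable Sox9 spot (y axis, log2 signal over the 75th percentile of the array) on each array, with samples numbered within their group (x axis) and lines at the array means. Spots of an array lie close together except on control non-tumour liver 1. The array means of the 3 tissues of the arsenite line form separate steps from -0.75 to -1.67, while single spots of neighbouring steps overlap.

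Non-tumour liver of the arsenite line was then compared with its normal liver, and with non-tumour liver of the control line. No member was called in either comparison. Against normal liver 0 of 18101 genes (0%) were called by limma, with 1238 at an unadjusted p under 0.05. Against the control line, on the same slide, 1 gene (0.00552%) was called, with 1020 at an unadjusted p under 0.05. That gene, Sh3bp4, which was named after its values were seen, was not well above background on any array of either group.

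Prom1 came nearest to a difference between the tissues without tumour. It was higher by 0.89 ± 0.28 in non-tumour than in normal liver of the arsenite line (95% interval 0.26 to 1.51, limma unadjusted p = 0.01, adjusted p = 0.64), and the 3 values of each group did not overlap. Sox9 did not overlap either, at a difference of 0.31 ± 0.51 (adjusted p = 0.96). Groups failed to overlap for 15.2% of all genes in this comparison, which stands beside 2 of the 7 members. With normexp background correction the Prom1 difference was 0.30, and leaving out a sample gave 0.56 to 1.18. By the dimmer Prom1 probe both groups were at background, and the brighter probe was not well above background on normal liver 1. Non-tumour and normal liver lay on different slides, so slide and tissue cannot be told apart here either. For Prom1 the order of the group means was tumours (5.10 ± 0.33, SD, n = 3 each), non-tumour liver of the arsenite line (-1.50 ± 0.62), control non-tumour liver (-1.88 ± 0.20) and normal liver (-2.39 ± 0.23), in which the step from tumours to non-tumour liver of the arsenite line passed the test, the next step did not, and the last was not tested.

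Between the lines, none of the 7 genes had separate groups, against 10.5% of all genes. Differences, arsenite minus control, were 0.38 ± 0.28 for Prom1, 0.26 ± 0.28 for Tspan8 and 0.05 ± 0.27 for Cd24a (limma adjusted p = 1 for each). Sox9 had the widest gap at 1.10 ± 0.51 (95% interval -0.04 to 2.24, adjusted p = 0.91), with control values on both sides of the arsenite values. Cd44, Spp1 and Krt19 differed by 0.26 to 0.53. In the tumour comparisons 4 of the 7 genes had separate groups, Tspan8, Prom1, Cd24a and Sox9, against 56.5% of all genes for non-tumour liver and 58.8% for normal liver.

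The lists of related genes below were chosen with earlier results of these data known, and their counts are descriptions. Over all genes tested, 17.1% were called higher and 30.0% lower in tumours than in non-tumour liver. Compared with normal liver these shares were 17.2% and 31.0%. Of 16 tested other bile duct genes (20 listed), 9 were called higher and 2 lower in tumours than in non-tumour liver, with a median difference of 0.82 against -0.13 over all genes. Krt23, a keratin of duct epithelium, rose by 6.25 ± 0.45 (limma adjusted p = 2.7e-06), Bicc1, an RNA-binding protein, by 2.26 ± 0.21, and Cldn7, a tight junction claudin that binds EpCAM, by 2.58 ± 0.31. The annexin Anxa4 rose by 1.08 ± 0.10. The called falls were those of the anion exchanger Slc4a2, by 1.16 on the log2 scale (SE 0.15, adjusted p = 0.00015), and of the water channel Aqp1, by 0.51 (SE 0.10, adjusted p = 0.0016). The chloride channel Cftr (-0.44 ± 0.25), the cilium protein gene Pkhd1 (-0.33 ± 0.16) and the transcription factor Onecut1 (-1.57 ± 0.88) were not called. Sctr, Ggt1, Muc1 and Cldn4 were too dim for the test, as Epcam and Krt7 were. Against normal liver the counts were again 9 higher and 2 lower, with 1 to 4 lower over 6 scalings of the arrays.

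Of 13 tested other liver progenitor genes (17 listed), 7 were called higher and 1 lower in tumours than in non-tumour liver (beside 17.1% and 30.0% of all genes tested). The median was 1.52, and the counts were the same against normal liver. The summed linear signal of the 13 genes was nevertheless lower, at 129 to 169 times the 75th percentile in tumours, against 411 to 466 in non-tumour and 375 to 392 in normal liver. Such a sum weights each gene by how brightly its probe hybridises, so it does not show a fall across the list. Aldh1a1 was the only gene of the list called lower. Prom2, the paralogue of Prom1 and 1 of the 7, was well above background in the tumours alone and so passed the filter through them. Its level was at least 54.0-fold higher than in non-tumour liver and at least 49.1-fold higher than in normal liver. The TWEAK receptor Tnfrsf12a rose by 4.41 ± 0.29 (limma adjusted p = 1.5e-06) and the transcription factor Sox4 by 2.69 ± 0.26 (adjusted p = 1.8e-05). The dehydrogenase Aldh1a1 fell by 3.07 on the log2 scale (SE 0.18, adjusted p = 9e-07). Dlk1, Foxl1 and Axin2 were among those too dim for the test.

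Sox9 is known as a target of Notch and Hippo signalling. Of 10 tested genes of these pathways (12 listed), 5 were called higher and 1 lower in tumours than in non-tumour liver (beside 17.1% and 30.0% of all genes tested). The median was 0.51. The Notch targets Hes1 and Hey1 rose by 1.84 ± 0.27 (limma adjusted p = 0.00032) and 1.20 ± 0.16 (adjusted p = 0.00013), and Ccn2, a Hippo target, by 0.88 ± 0.15. Over 6 scalings of the arrays the rise in Hey1 ranged from 0.33 to 1.36 and was called in each. Ccn1 of the same list, at 0.22 to 0.45, was called in none, and Ankrd1 was too dim for the test. The receptor Notch1 fell by 0.71 (SE 0.14, adjusted p = 0.0017). Against normal liver 6 were higher and 1 was lower, although the fall in Notch1 there (-0.46 ± 0.14, adjusted p = 0.017) was called under 4 of 6 scalings of the arrays.

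Among 16 tested ligands, receptors and membrane partners of the members (20 listed), 7 were called higher and 2 lower in tumours than in non-tumour liver, and 9 and 2 compared with normal liver. The shares of all genes tested that were called were 47.1% (17.1% higher) and 48.1% (17.2% higher). Over 6 scalings the counts were 6 to 10 higher against non-tumour liver, and 9 to 11 higher and 0 to 2 lower against normal liver. The median was 0.40 against non-tumour liver. Cd9, a tetraspanin that sits in membrane clusters with EpCAM and CD44, rose by 1.17 ± 0.12 (limma adjusted p = 2.4e-05), and the integrin chain Itga6, a partner of Tspan8, by 2.24 ± 0.32 (adjusted p = 0.00026). Selp, the P-selectin that binds CD24, fell by 0.83 (SE 0.15, adjusted p = 0.0011). The hyaluronan synthases Has1, Has2 and Has3, which make the ligand of CD44, were too dim for the test.

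Tspan8 changed more than any of the 20 other tetraspanins tested (22 listed). Of these, 9 were called higher and 2 lower in tumours than in non-tumour liver, and 9 and 1 compared with normal liver, with medians of 0.34 and 0.22. In the same comparisons 47.1% (17.1% higher) and 48.1% (17.2% higher) of all genes tested were called. Of those called higher, Tspan5 was well above background in no array of non-tumour or normal liver of the arsenite line. Cd63, a tetraspanin of late endosomes and exosomes, rose by 4.84 ± 0.15 (limma adjusted p = 1.3e-08), with group means of 7.27 ± 0.22 in tumours and 2.43 ± 0.06 in non-tumour liver (SD, n = 3 each). Tspan2 rose by 3.21 ± 0.38 (adjusted p = 7.8e-05) and Tspan13 by 2.34 ± 0.15 (adjusted p = 1.3e-06). No gene of any of these lists was called in the comparisons without tumours.

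**Figure D5:**
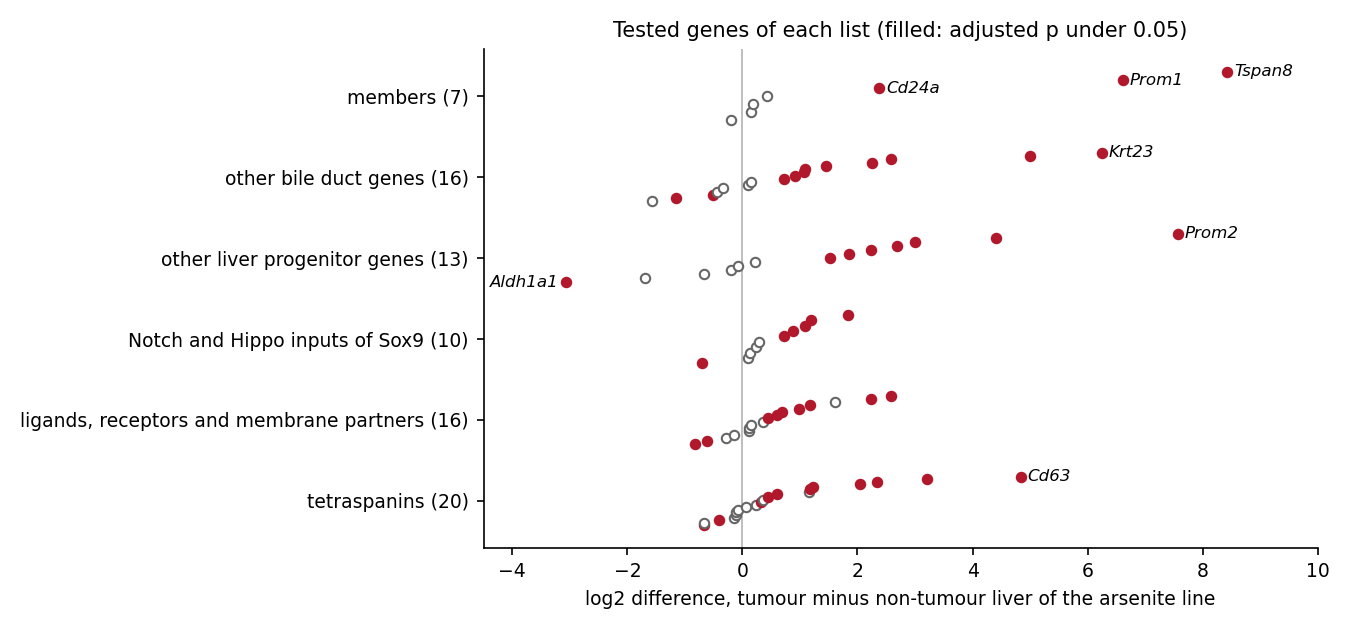
Difference in log2 level, tumour minus non-tumour liver of the arsenite line (x axis), for each tested gene of 6 lists (rows, with the number tested); filled red points have an adjusted p under 0.05. Tspan8 and Prom1 lie at the right end of their row, next to Prom2, Krt23 and Cd63 of the other lists, and Aldh1a1 lies at the left.

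Some markers of the cell types in liver were called in the tumour comparisons, and their part in the members' results was not tested. Beside the counts below, 47.1% of all genes tested were called against non-tumour liver (17.1% higher, 30.0% lower), and 48.1% against normal liver. Hepatocyte markers were bright in all groups (10 of 10 tested), with summed linear signals of 5210 to 6480 times the 75th percentile in tumours, against 6950 to 7560 in non-tumour and 7260 to 8560 in normal liver of the arsenite line. Of these, 1 was called higher and 5 lower in tumours than in non-tumour liver. Of 13 tested macrophage markers 10 were lower and none higher than in non-tumour liver (6 to 11 lower over 6 scalings), and 6 were lower than in normal liver (3 to 6). Their sums were 53.0 to 94.0 in tumours, against 145 to 196 in non-tumour and 118 to 162 in normal liver. Stellate cell and fibroblast markers were mixed by count (4 higher and 5 lower of 12 against non-tumour liver), with sums of 30.3 to 44.0 in tumours and 77.5 to 84.8 in non-tumour liver. Endothelial markers were mixed as well (2 higher and 3 lower of 10), with sums of 67.6 to 92.3 in tumours and 105 to 125 in non-tumour liver. The median differences were 0 for stellate cell and fibroblast markers and 0.04 for endothelial markers. A sum weights each gene by how brightly its probe hybridises, so these lower sums do not show a fall across either list. Of 6 tested T and NK cell markers 1 was higher and 1 lower. Their sums, 129 to 176 in tumours and 31.4 to 58.5 in non-tumour liver, followed Cd4, which rose by 1.88 ± 0.27 (limma adjusted p = 0.00026). Against non-tumour liver, 1 of 3 tested B and plasma cell markers was higher. In the same comparison 1 of 4 neutrophil markers and the 1 tested mesothelial marker were lower. Calls among endothelial, T and NK cell, B and plasma cell and neutrophil markers were near or below the share over all genes.

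The summed linear signal of the 7 tested members was 64.5 to 107 in tumours, 2.59 to 3.41 in non-tumour and 2.23 to 2.51 in normal liver of the arsenite line, and 1.98 to 2.48 in control non-tumour liver. Prom1 and Tspan8 made up nearly all of the tumour sums, with 61.9 to 103 in tumours, against 0.371 to 0.703 in non-tumour and 0.281 to 0.360 in normal liver. The other 5 members summed to 2.55 to 3.99 in tumours, 2.13 to 3.04 in non-tumour and 1.88 to 2.15 in normal liver. A sum weights each gene by how brightly its probe hybridises.

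The genes whose pattern over the 12 arrays was most like that of a member were named by Pearson's r, with no test. The tumours form a cluster apart from the other arrays, so a high r mostly restates that gap. Tgfbr2, Panx1 and Galnt6 were most like Prom1 (0.995, 0.995 and 0.993), Scd2, Nid1 and Glp2r most like Tspan8 (0.998, 0.997 and 0.996), and Kdelr3, Slc10a6 and Gm8096 most like Cd24a (0.993, 0.992 and 0.992). For Sox9, whose values are set apart by the control arrays, they were Dhx57 (0.940), Olfr9 (0.918) and Tubb2a-ps2 (0.917). The highest r was lower for Krt19 (Prpf31, 0.921), Cd44 (Sgms1, 0.906) and Spp1 (Inpp4b, 0.821).

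Promoter sequences are shown for the genes with the largest rise and for Epcam, which was not detectable in tumours. RefSeq promoters of GRCm38.p6 were at hand for 6 of the 9 genes, with 8 start sites. The 250 bases before each start were searched on both strands for 7 motifs chosen after the sequences had been seen. These were the AP-1 motif with the letters TGANTCA, where N is any base, the GC box with GGGCGG and the box named after its letters CCAAT. The others were the TATA motif with the letters TATAAA, the TCF/LEF motif with CTTTGA, the TEAD motif with GGAATG and the E-box with CACGTG. Capitals mark matches, and no matches overlapped.
Prom1 upstream start (chr5:44101737-44101986, minus strand): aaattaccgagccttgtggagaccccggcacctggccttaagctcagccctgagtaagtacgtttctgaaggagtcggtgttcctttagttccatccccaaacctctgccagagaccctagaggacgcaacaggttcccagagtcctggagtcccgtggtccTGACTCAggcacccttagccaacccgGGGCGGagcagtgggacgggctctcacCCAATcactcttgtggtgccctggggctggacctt
Tspan8 (chr10:115817034-115817283, plus strand): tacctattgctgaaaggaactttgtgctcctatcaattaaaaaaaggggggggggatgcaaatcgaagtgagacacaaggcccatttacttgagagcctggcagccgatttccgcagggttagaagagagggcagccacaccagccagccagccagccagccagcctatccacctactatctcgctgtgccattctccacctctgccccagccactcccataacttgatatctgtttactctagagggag
Epcam (chr17:87635729-87635978, plus strand): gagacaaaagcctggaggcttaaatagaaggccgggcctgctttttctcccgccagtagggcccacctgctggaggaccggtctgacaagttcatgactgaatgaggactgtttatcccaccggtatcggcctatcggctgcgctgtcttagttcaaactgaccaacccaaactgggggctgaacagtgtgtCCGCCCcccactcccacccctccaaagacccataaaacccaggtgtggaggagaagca

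A match to the AP-1 letters TGANTCA stood at bases -88 to -82 before the upstream Prom1 start, as TGACTCA. Another stood at bases -189 to -183 before the downstream Prom1 start, as TGAATCA, and none before the other starts. The letters TGANTCA, with any base at N, were found in 6.75% of 32851 promoter windows of the same length. The upstream Prom1 window also had a GC box (32.7% of windows) and a CCAAT box (33.8%), and the downstream one had no other match. Tspan8 and Cd44 had no match, and Epcam had a GC box on the minus strand. The TATA motif (12.4% of windows) was matched at bases -211 to -206 before a start of Spp1. TCF/LEF (13.8%), TEAD (12.6%) and E-box (6.02%) motifs were matched before none of the 8. These matches describe letters in the windows, and binding was not measured.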

How the data were processed

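Arrays were 1-colour (Cy3). Per the file headers, the deposited processed signal is an intensity in arbitrary units, background-subtracted and spatially detrended but not scaled between arrays, from Feature Extraction 10.7.3.1 (12.0.3.1 per the submitters' processing notes). The authors' value table holds a ratio, checked to be this signal over the 75th percentile of all spots. Positions are from the mm9 annotation of the files.

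Levels are the log2 ratio of the processed signal to the 75th percentile of the 59305 non-control spots of that array. Outlier spots were left out and spots of a probe averaged. Of 55681 probes, 24144 passed a filter that asked for a signal well above background on every array of some group, and the brightest stood for its gene (18101 genes, 7 members). Members and lists were chosen with earlier results of these data known. The text names every member, up to 4 called genes with the smallest p of each list, and up to 3 genes most like each member. Some other list genes were named after their values were seen. Some list genes are not reported here. All 12 arrays entered a single fit with limma 3.58.1 in R 4.3.3 (2-sided), tested on simulated data. Array number limits the precision. Python 3.11.15 and matplotlib 3.10.9 made sequences and figures.

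Samples with equal numbers in tumours and non-tumour liver deviated together (correlations 0.15, 0.14 and 0.23, with -0.16 to 0 where numbers differed), which met the criterion for pairing. The fit behind the printed values has no block, and fits with the sample number as a block were alternatives. No other comparison gave over 0.1 for every pair. Alternatives covered background, scaling, filter, probe choice, samples, block and array weights.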

Additional observations from a re-analysis of the deposited data

How the results depend on the processing

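The tumour calls for Prom1, Tspan8 and Cd24a held under every alternative that tested them. Against non-tumour liver the differences ranged over 5.69 to 6.77, 6.84 to 8.59 and 1.19 to 2.54, and against normal liver over 5.98 to 7.76, 6.79 to 8.72 and 1.01 to 2.32. With only probes well above background on all arrays, 1 member was called higher in each tumour comparison, since Prom1 and Tspan8 were then not tested. Sox9 became called in both with 6 arrays, with 6 arrays and the replicate block (0.045 and 0.015), and with 9 arrays, and without control non-tumour liver 1, the array lowest in Sox9, its adjusted p was 0.28 and 0.075; the last 2 fits were chosen after seeing the data. The replicate block changed no other member's call.

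With no filter 14219 genes were called between tumours and normal liver, compared with 8711 with the filter. Between tumours and non-tumour liver 8181 genes were called with no filter, compared with 8528 with it. Dropping the filter adds genes too dim to pass it, and their number is not given, so these counts are not shares of the same set. The cause of the larger count against normal liver was not tested. Genes called between non-tumour and normal liver numbered 1 after a median shift, 1 with probes above background on all arrays, 5 with array weights and 0 to 1 when leaving out a sample. Between the lines they numbered 0 with normexp, 3 after a median shift, 6 with no filter, 0 with probes above background on all arrays, 4 with 6 arrays, 0 with 6 arrays and the replicate block, 4 with array weights and 0 to 3 when leaving out a sample. Leaving out a sample gave 7434 to 8689 and 7446 to 8861 genes in the tumour comparisons.

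Signs turned only where members were not called. Krt19 in tumours against normal liver was 0.03 after a median shift. Between non-tumour and normal liver, Tspan8 was -0.05 with normexp, -0.01 by the percentile of detected probes and -0.01 with array weights, Krt19 -0.09, -0.01 and -0.03 in the same order, and Cd24a 0.02 after a median shift. Between the lines, Cd24a was -0.12 and Tspan8 -0.01 with normexp. The cause was not tested. Leaving out a sample gave Spp1 -0.20 to 0.59, Cd44 -0.28 to 0.49 and Krt19 -0.39 to 0.04 against non-tumour liver, Krt19 -0.49 to 0.12 and Cd44 -0.11 to 0.66 against normal liver, Tspan8 -0.13 to 0.16 and Krt19 -0.30 to 0.31 between non-tumour and normal liver, and Krt19 -0.17 to 0.48 and Cd24a -0.02 to 0.16 between the lines.

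The slide as a block was not run, since tumours and normal liver each had a slide of their own and both non-tumour groups shared a single slide.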

Other observations

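Genes next to Prom1, Tspan8 and Cd24a in the reference order did not rise as far. The 12 nearest tested neighbours, chosen by position after the data had been seen, differed by -0.96 to 0.62 between tumours and non-tumour liver. Cd38 and Fbxl5 on the lower side of Prom1 differed by -0.14 ± 0.10 and 0.12 ± 0.13 (SE, n = 3 per group, limma adjusted p = 0.29 and 0.49). On its higher side Tapt1 fell by 0.96 (SE 0.13, adjusted p = 0.00018) and Ldb2 rose by 0.62 ± 0.16 (adjusted p = 0.01). Lgr5, near Tspan8, which encodes an R-spondin receptor that strengthens WNT signalling and is itself used as a stem cell marker, differed by -0.66 ± 0.95 (adjusted p = 0.6). Near Cd24a, Mtres1 differed by -0.05 ± 0.12 (adjusted p = 0.78) and Rtn4ip1 fell by 0.71 (SE 0.15, adjusted p = 0.003).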
